A study of Homo sapiens with 6 samples.

Results

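Amino acid transporters of the solute carrier class were examined. They are the 40 members of the SLC1A, SLC3A, SLC7A, SLC36A, SLC38A and SLC43A families, which mainly move amino acids across cell membranes. They were picked by name: any row of the deposited tables whose gene symbol begins with a family stem followed by digits alone, so the pseudogenes SLC7A5P1 and SLC7A5P2 and the antisense gene SLC7A11-AS1 did not count. They are 40 of 56412 gene symbols named in all 6 library tables. Of the 40, 18 averaged 0.5 FPKM or more in these libraries and could be tested, 20 lay under that level, and 2 (SLC38A6 and SLC43A3) shared every row with another protein-coding gene and were described without a test. FPKM is the number of sequenced fragments scaled for transcript length and library depth, so levels of different genes can be set side by side.

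The RNA came from 2 untreated human B cell lymphoma cell lines with 3 libraries each. LY19WT is labelled EZH2 wild type, while LY19Y646F constantly makes the EZH2-Y646F mutant, driven by a CMV promoter. EZH2 is the methyltransferase of Polycomb repressive complex 2, and both lines were used at passages 10 to 15. The labels call the libraries biological replicates but do not say that they came from separate cultures or how many clones LY19Y646F represents, so p-values reflect only how far these libraries spread. Read totals are unknown here. By the Cufflinks intervals, depth varied between 1.00 and 1.10 relative to the shallowest library, a rough estimate. The 10 highest rows held 27.5% of the FPKM sum in LY19WT replicate 3 and 5.71% to 9.38% elsewhere.

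The lines also differed in B cell markers. CD79A, CD79B and CD22 were present in each library, at 30.6 to 337 FPKM. MS4A1, which encodes CD20, stood at 0.0688 to 0.140 FPKM in LY19WT and at 83.1 to 118 FPKM in LY19Y646F, and CR2 and FCER2 never exceeded 0.149 FPKM. The rows of MS4A1, CD22 and the precursor marker RAG1 also named another coding gene in at least 1 library. The summed FPKM of 8 precursor B cell markers (among them DNTT, RAG1 and VPREB1) was 872 to 2429 in LY19WT and 93.2 to 94.2 in LY19Y646F. MME, also on that list, went the other way, at 46.1 to 74.3 FPKM in LY19WT and 81.5 to 84.6 FPKM in LY19Y646F, where it made up most of the sum. CD34 was under 0.1 FPKM in each library. Of 8 T cell markers 7 were under 1 FPKM in each LY19WT library and 6 in each LY19Y646F library, and all 9 stromal or epithelial markers were under 1 FPKM in each library. The T cell exceptions were TRAC, at 12.5 to 15.6 FPKM over the 6 libraries, and in LY19Y646F also CD3E, at 0.736 to 1.06 FPKM. LYZ, a myeloid marker, stood at 10.1 to 13.4 FPKM in LY19WT and at 0.0916 to 0.263 FPKM in LY19Y646F. The part of these differences in the transporter results was not tested. In bulk RNA, fewer cells with a transcript and less transcript per cell cannot be told apart.

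Amino acid carriers fall into a few working types. SLC38 proteins bring in glutamine and other small neutral amino acids with sodium. SLC7 light chains pair with the glycoprotein heavy chain SLC3A2, also called CD98 heavy chain or 4F2hc, to exchange large neutral, cationic or cystine substrates. SLC1A4 and SLC1A5 exchange small neutral amino acids and glutamine. Some SLC36 proteins carry amino acids with protons, often out of lysosomes. SLC43A1 and SLC43A2 carry large neutral amino acids without sodium. Lymphocytes raise several of these carriers when they grow, and leucine and glutamine supply feeds the growth kinase complex mTORC1.

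Most of the tested transporters did not pass the test between the lines. Glutamine carriers SLC38A2 and SLC38A5 fell in LY19Y646F, with differences of -1.31 and -0.997 in log2(FPKM + 1), and SLC43A2, a carrier of large neutral amino acids, rose by 1.89 on that scale. Limma with Benjamini-Hochberg adjustment over all tested genes called these 3 of 18 members, 1 higher and 2 lower. Over all 10710 tested genes, of which 7283 were protein-coding, it called 33.3%, with 16.8% higher and 16.5% lower. The median absolute difference was 0.22 among the 18 members and 0.63 among all tested genes, and the signed medians were -0.20 and -0.03. The libraries of one line lay entirely apart from those of the other for the same 3 members, 1 higher and 2 lower, and for 48.6% of all tested genes, 24.5% higher and 24.1% lower. Of the 15 members not called, 9 had a 95% interval that stayed within a 2-fold change on this scale in either direction, and for the other 6 a larger difference is within the interval.

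**Figure D1:**
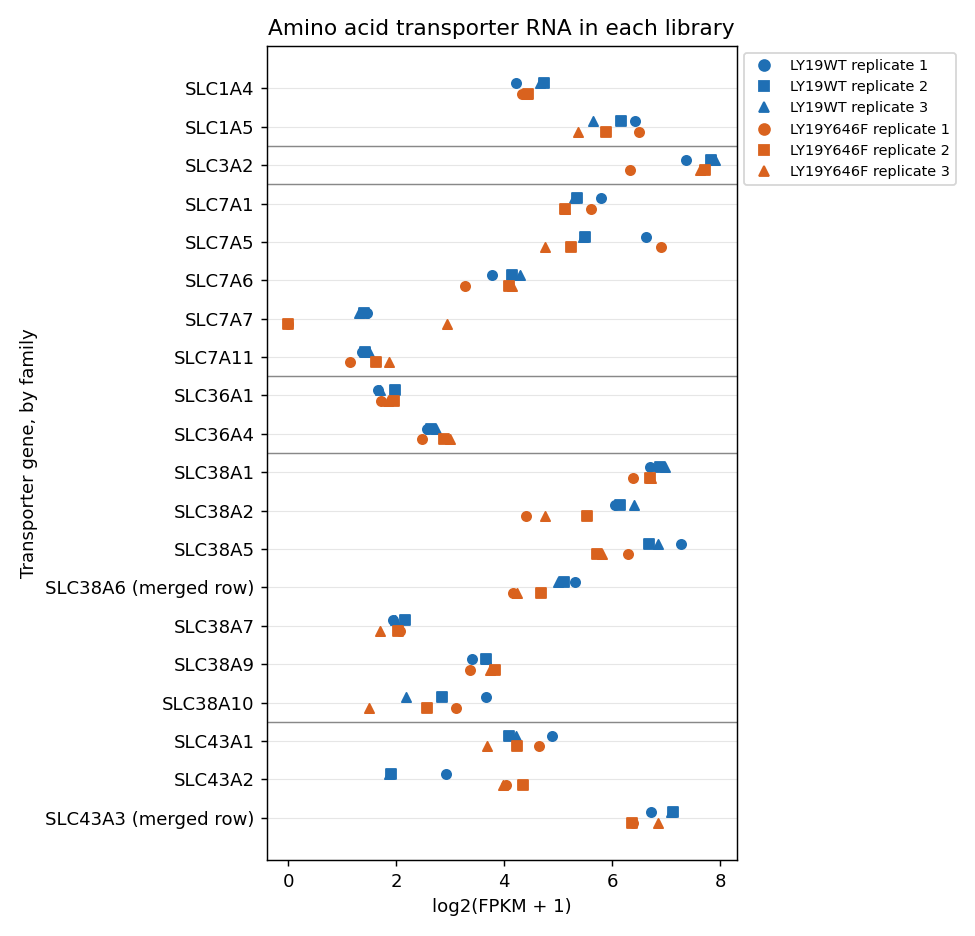
Level of each tested transporter and of the 2 in merged rows, as log2(FPKM + 1) on the horizontal axis, with LY19WT libraries in blue, LY19Y646F libraries in orange and a marker shape for each replicate number; grey lines part the families. Only SLC38A2, SLC38A5, SLC43A2 and the row that names SLC38A6 show no overlap between the lines, and SLC7A5 spreads more within a line than between the lines.

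**Figure D2:**
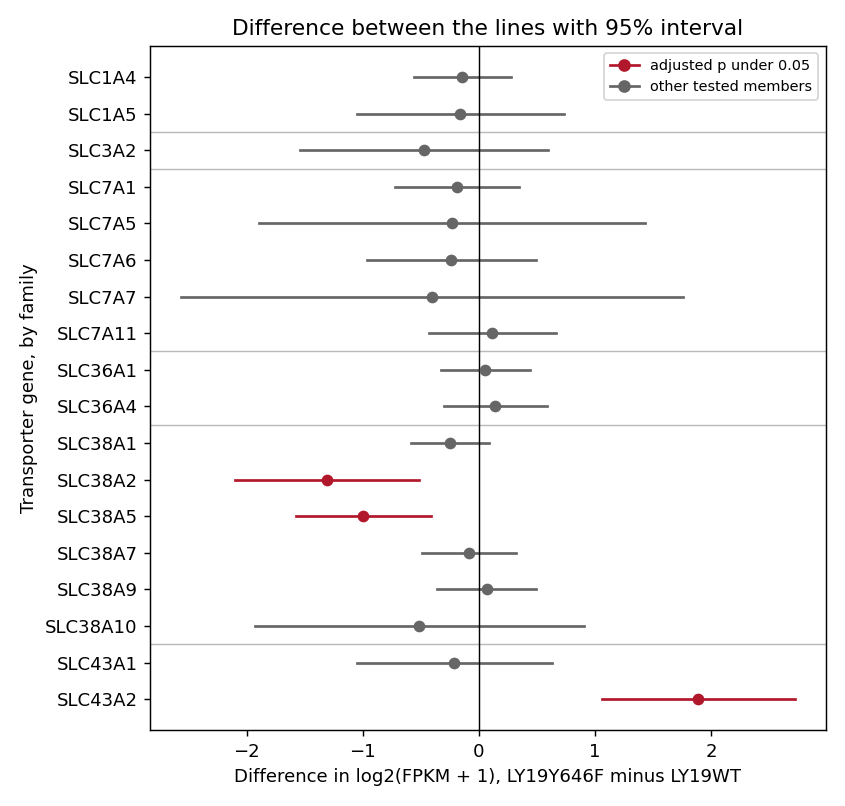
Difference in log2(FPKM + 1), LY19Y646F minus LY19WT, with its 95% interval from limma for the 18 tested members, ordered by family. The intervals of SLC38A2, SLC38A5 and SLC43A2 (red) lie to a side of 0 and have an adjusted p under 0.05, and SLC7A5 and SLC7A7 have wide intervals of -1.89 to 1.43 and -2.57 to 1.76.

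The SLC38 family gave both falls. SLC38A2 (SNAT2; hg19 chromosome 12, 46751970 to 46766650) is a sodium-coupled carrier of small neutral amino acids that many cells induce when amino acids run short. It measured 65.4, 69.8 and 83.8 FPKM in the LY19WT libraries against 20.1, 45.5 and 25.9 FPKM in the LY19Y646F libraries. Each LY19Y646F library was below each LY19WT library, and LY19Y646F replicate 2 was the nearest to them. The line means stood at 73.0 ± 9.60 and 30.5 ± 13.3 FPKM (SD, n = 3 each), with a difference of -1.31 (SE 0.31, limma adjusted p = 0.027). Without LY19WT replicate 1, 2 or 3, or without LY19Y646F replicate 3, limma's adjusted p was 0.063, 0.078, 0.090 and 0.088. With limma's library weights the difference was -0.86 (adjusted p = 0.035).

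SLC38A5 (SNAT5; hg19 chromosome X, 48316920 to 48328644) carries glutamine, asparagine, serine and glycine in exchange for protons. Its libraries measured 154, 102 and 114 FPKM in LY19WT against 77.8, 51.5 and 55.0 FPKM in LY19Y646F. The groups did not overlap, and replicate 1 was the highest library of each line. The means of 123 ± 27.4 and 61.4 ± 14.3 FPKM (SD, n = 3 each) gave a difference of -0.997 (SE 0.23, limma adjusted p = 0.024). Limma's adjusted p was 0.055 without LY19WT replicate 1, 0.064 without LY19WT replicate 3, and 0.079 and 0.078 without LY19Y646F replicates 2 and 3.

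The bases before the start sites of SLC38A2 and SLC38A5 are shown because these members moved together and are built differently. They are the 250 bases upstream of the RefSeq start on the GRCh38.p14 build, minus strand, from chr12:46372774-46373023 and chrX:48470261-48470510. Capitals mark CG dinucleotides, the places where DNA can carry CpG methylation.
SLC38A2: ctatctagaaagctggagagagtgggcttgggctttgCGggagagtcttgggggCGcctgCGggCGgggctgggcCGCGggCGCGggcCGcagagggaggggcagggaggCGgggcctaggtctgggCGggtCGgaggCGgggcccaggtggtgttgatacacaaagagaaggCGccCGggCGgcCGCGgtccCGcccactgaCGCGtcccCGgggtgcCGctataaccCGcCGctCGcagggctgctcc
SLC38A5: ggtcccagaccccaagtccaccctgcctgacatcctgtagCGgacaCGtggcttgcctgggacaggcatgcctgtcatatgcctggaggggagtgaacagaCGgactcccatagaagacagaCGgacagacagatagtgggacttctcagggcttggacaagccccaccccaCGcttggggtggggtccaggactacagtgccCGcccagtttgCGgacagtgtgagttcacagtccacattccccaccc
The SLC38A2 stretch holds 26 CG dinucleotides and the SLC38A5 stretch 7, so the members that fell together had a CG-rich and a CG-poor start. SLC43A2, which rose, has 3 RefSeq windows with 10, 23 and 37 CG dinucleotides in the same 250 bases. RefSeq windows of 300 bases (250 before and 50 after a start) were found for 17 of the 18 tested members, in 33 windows with a median of 20 CG, and for 13 of the 20 members under the test level, in 19 windows with a median of 9 CG. The median over all 35116 windows was 14 CG.

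A pair of short motifs was searched in the same 300-base windows on both strands. The composite element TGATGNAA, which ATF4 binds together with C/EBP partners at genes of the amino acid response, was in 5 of the 33 windows of tested members (15.2%), in 1 of the 19 of members under the test level (5.26%) and in 3.62% of all windows. Its carriers among the tested members were SLC1A4, SLC1A5, SLC3A2, SLC7A1 and SLC38A1, none of which passed the test between the lines. SLC7A11 had no window, and bases outside the windows, introns among them, were not searched for any member. The E-box CACGTG, which MYC and its relatives bind, was in 7 of 33 (21.2%), in 2 of 19 (10.5%) and in 7.26% of all windows. It was found at SLC1A5, SLC7A5, SLC7A7, SLC36A1, SLC38A5, SLC38A7 and SLC43A1. The set of all windows was not limited to genes expressed in these cells, windows of 1 gene can overlap, and a match is only a match of letters.

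SLC38A1 (SNAT1), a close relative of SLC38A2 and a main glutamine carrier of growing cells, was the highest of the family in LY19Y646F. It measured 103, 117 and 125 FPKM in LY19WT against 82.9, 102 and 105 FPKM in LY19Y646F. The groups overlapped, and the difference of -0.25 (95% interval -0.59 to 0.09, limma adjusted p = 0.22) did not pass. SLC38A9, a lysosomal arginine sensor for mTORC1, gave 9.61, 11.7 and 11.6 FPKM against 9.26, 13.2 and 12.4 FPKM, a difference of 0.07 (95% interval -0.36 to 0.49). The lysosomal glutamine carrier SLC38A7 stood at 2.24 to 3.47 FPKM and SLC38A10 at 1.81 to 11.7 FPKM over the 6 libraries, and neither passed. Summed over the 6 tested SLC38A members, RNA was 309.8 to 347 FPKM in LY19WT and 201 to 221 FPKM in LY19Y646F. That sum includes SLC38A2 and SLC38A5, the members called lower, so it is not a separate result.

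SLC38A6 lay in a merged row in each library, shared with MNAT1, a subunit of the CDK-activating kinase, and with RP11-193F5.1. That row measured 38.6, 33.4 and 30.8 FPKM in LY19WT against 16.8, 24.6 and 17.9 FPKM in LY19Y646F. The lines did not overlap, but the row cannot be divided between its genes.

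The SLC43 family held the rise. SLC43A2 (LAT4; hg19 chromosome 17, 1472535 to 1532180) lets leucine, isoleucine, methionine and phenylalanine cross the membrane down their gradients. It measured 6.56, 2.73 and 2.66 FPKM in LY19WT against 15.3, 19.4 and 14.7 FPKM in LY19Y646F. Each LY19Y646F library was above the highest LY19WT library, replicate 1. The means of 3.98 ± 2.23 and 16.5 ± 2.58 FPKM (SD, n = 3 each) differed 4.14-fold, or by 1.89 on the log2(FPKM + 1) scale (SE 0.33, limma adjusted p = 0.0090). Limma's adjusted p stayed between 0.0018 and 0.039 when any single library was left out.

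SLC43A1 (LAT3), which carries the same kind of substrates, did not follow it. Its libraries gave 28.5, 16.1 and 17.5 FPKM in LY19WT against 24.0, 17.7 and 11.8 FPKM in LY19Y646F, with a difference of -0.21 (95% interval -1.05 to 0.63, limma adjusted p = 0.67). SLC43A3, a carrier of purine bases in the same family, shared its row with PRG2 and RP11-872D17.8 in each library. The row gave 104, 139 and 135 FPKM in LY19WT against 82.2, 81.7 and 114 FPKM in LY19Y646F, with overlap.

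The CD98 heterodimers were next. The heavy chain SLC3A2 (hg19 chromosome 11, 62623518 to 62656355), which brings the SLC7 light chains to the cell surface, was the most abundant member, with a mean above that of 96.2% of tested genes. It measured 164, 226 and 239 FPKM in LY19WT against 79.1, 209.6 and 198 FPKM in LY19Y646F. Replicate 1 was the lowest library of both lines. The difference of -0.47 (SE 0.42, limma adjusted p = 0.435) did not pass, and it was -0.02 without LY19Y646F replicate 1.

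SLC7A5 (LAT1; hg19 chromosome 16, 87863629 to 87903094), the light chain that brings in leucine and other large neutral amino acids, had the opposite order. It measured 97.6, 44.2 and 43.2 FPKM in LY19WT against 119, 36.7 and 25.9 FPKM in LY19Y646F, and replicate 1 led in both lines. The means of 61.7 ± 31.1 and 60.6 ± 51.1 FPKM (SD, n = 3 each) differed by -0.23 on the log2 scale (95% interval -1.89 to 1.43, limma adjusted p = 0.82). SLC7A5P1 and SLC7A5P2 are near copies of part of SLC7A5, so some of its reads may have been assigned to them. The ratio of SLC7A5 to SLC3A2 was 0.596, 0.196 and 0.181 in LY19WT and 1.51, 0.175 and 0.131 in LY19Y646F. In replicates 2 and 3 SLC3A2 thus exceeded SLC7A5 several-fold in both lines, and LY19Y646F replicate 1 was the only library where the light chain was the higher.

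Other light chains were less abundant. SLC7A6, a y+LAT2 exchanger of cationic and neutral amino acids, gave 12.7, 16.6 and 18.5 FPKM in LY19WT against 8.64, 16.0 and 16.6 FPKM in LY19Y646F and did not pass (limma adjusted p = 0.57). Its locus overlaps the SLC7A6OS gene, SLC7A11 overlaps the antisense SLC7A11-AS1, and how strand was used in counting is not given in the sources used here. The cystine importer SLC7A11 (xCT), which feeds glutathione synthesis, was low throughout, with 1.58, 1.67 and 1.82 FPKM against 1.20, 2.09 and 2.63 FPKM (difference 0.11, limma adjusted p = 0.72). SLC7A5 made up 66.5% to 85.9% of the summed FPKM of the 6 light chain genes that pair with SLC3A2 (SLC7A5, SLC7A6, SLC7A7, SLC7A8, SLC7A10 and SLC7A11) in LY19WT, and 49.998% to 92.4% in LY19Y646F.

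SLC7A7 (y+LAT1), a light chain that exports cationic amino acids, could not be settled from the library tables. It measured 1.74, 1.63 and 1.47 FPKM in LY19WT, and in LY19Y646F it was listed at 0 in replicates 1 and 2 and at 6.69 FPKM in replicate 3. The linear means were 1.61 and 2.23 FPKM, higher in LY19Y646F, while the difference on the log2(FPKM + 1) scale was negative. Its neighbour MRPL52, a mitochondrial ribosomal protein gene that cells generally express, was listed at 0 in the same libraries and at 30.3 to 145 FPKM in the rows that name it elsewhere. The difference of -0.40 turned to 0.09 without LY19Y646F replicate 1 or 2, and was -1.38 (limma adjusted p = 0.0047) without replicate 3. The authors' deposited table puts SLC7A7 at 2.24 FPKM in LY19WT and 10.2 FPKM in LY19Y646F, higher in LY19Y646F as the linear library means are.

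SLC7A1 (CAT1), the cationic carrier that brings in arginine and lysine and works without SLC3A2, gave 54.4, 39.6 and 38.2 FPKM in LY19WT against 47.9, 33.8 and 33.9 FPKM in LY19Y646F. The groups overlapped, and the difference of -0.19 (95% interval -0.72 to 0.34, limma adjusted p = 0.53) did not pass.

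In the SLC1A family, SLC1A5 (ASCT2), an exchanger of glutamine and other neutral amino acids, gave 85.2, 70.8 and 48.9 FPKM in LY19WT against 89.3, 58.3 and 40.4 FPKM in LY19Y646F. The lines covered nearly the same range, and the difference of -0.16 had a 95% interval of -1.05 to 0.73 (limma adjusted p = 0.76). SLC1A4 (ASCT1), which exchanges serine, alanine and cysteine, gave 17.6, 25.8 and 24.4 FPKM against 19.1, 20.7 and 20.5 FPKM (difference -0.14, 95% interval -0.56 to 0.28). In LY19Y646F replicate 1 the 95% interval printed by Cufflinks for SLC1A4 ran from 0 to 47.8 FPKM. SLC1A3, a glutamate and aspartate transporter, averaged just under the level for testing. It measured 0.893, 0.918 and 1.05 FPKM in LY19WT against 0, 0.0381 and 0.0403 FPKM in LY19Y646F. Without the filter, where limma called 18.2% of 24717 genes, its difference was -0.93 (SE 0.096, limma adjusted p = 0.0029), and the authors' deposited table gives 1.54 and 0.0196 FPKM.

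The SLC36 carriers were low in both lines, and neither tested member passed. SLC36A1 (PAT1), an exporter of small amino acids from lysosomes, measured 2.15, 2.95 and 2.26 FPKM in LY19WT against 2.27, 2.88 and 2.60 FPKM in LY19Y646F. In LY19WT replicate 2 and LY19Y646F replicate 1 its row also named the non-coding CTC-251D13.1, and in LY19WT replicate 1 the 95% interval printed by Cufflinks ran from 0 to 10.2 FPKM. SLC36A4 (PAT4), a high-affinity carrier of proline and tryptophan, gave 4.96, 5.26 and 5.62 FPKM against 4.57, 6.42 and 7.01 FPKM. The differences were 0.06 (95% interval -0.33 to 0.44) and 0.14 (-0.30 to 0.58).

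Replicate 1 stood apart among the transporters of both lines, as it did among all genes. The members SLC1A5, SLC7A1, SLC7A5, SLC38A5, SLC38A10 and SLC43A1 were highest in replicate 1 of each line (6 of 18, against 21.0% of all tested genes). Another 9 were lowest there in each line (9 of 18, against 35.7%), among them SLC3A2, SLC7A6, SLC7A11, SLC38A1 and SLC38A2. The replicate 2 libraries held 3 and 1 such members, and the replicate 3 libraries 4 and 4. When replicate 1 of both lines was left out, a choice made after seeing this, SLC43A2 (2.28, limma adjusted p = 0.0057) and SLC38A5 (-1.01, limma adjusted p = 0.0075) were still called and SLC38A2 was not (-1.13, limma adjusted p = 0.084). No batch or date is given in the labels, and the part of one in this pattern was not tested.

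**Figure D3:**
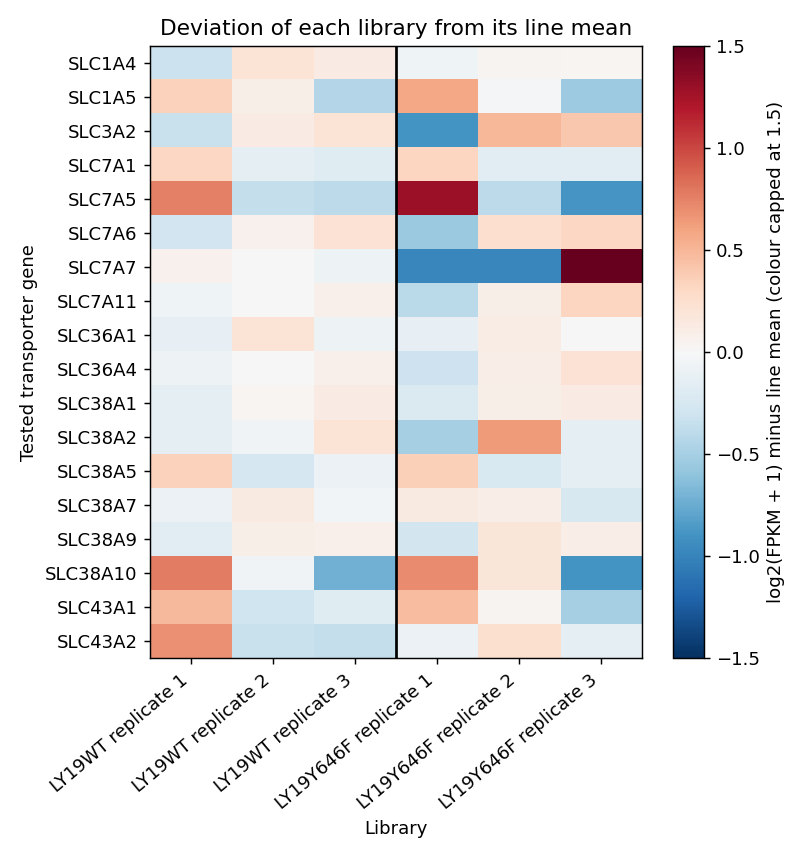
Deviation of each library from the mean of its own line in log2(FPKM + 1), for the 18 tested members in rows and the 6 libraries in columns, with LY19WT left and LY19Y646F right of the black line; red is above and blue below the line mean, with colour capped at 1.5. Replicate 1 of both lines is red for SLC7A5, SLC1A5, SLC38A10 and SLC43A1 and blue for SLC3A2 and SLC7A6, and SLC7A7 splits the LY19Y646F libraries.

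The 20 members under the level for testing include SLC1A3, given above. Of these, 8 genes (SLC3A1, SLC7A2, SLC7A4, SLC7A10, SLC7A13, SLC38A3, SLC38A4 and SLC38A11) were listed at 0 in all 6 libraries, which in these tables can be a failed estimate. Another 10 never exceeded 0.1 FPKM, among them the glutamate transporters SLC1A1, SLC1A2 and SLC1A6 and the light chain SLC7A8. SLC7A9, the light chain that pairs with SLC3A1 in kidney and gut, reached 0.241 FPKM in LY19Y646F replicate 1. By family, the tested members were 2 of 7 for SLC1A, 1 of 2 for SLC3A, 5 of 13 for SLC7A, 2 of 4 for SLC36A, 6 of 11 for SLC38A and 2 of 3 for SLC43A.

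The authors' deposited table, a Cuffdiff comparison with mean FPKM per line, holds 19 of the 40 members, 17 of them tested here. It compares the same lines in the same series, so a shared sign is not independent support. For the called members that table points the same way: SLC38A2 goes from 171 to 64.4 FPKM, SLC38A5 from 141 to 62.3 FPKM and SLC43A2 from 4.65 to 23.4 FPKM. On the log2(FPKM + 1) scale these are differences of -1.39, -1.16 and 2.11. Of the 17 tested members 15 had the same sign of the log2(FPKM + 1) difference in the authors' deposited table, the exceptions being SLC7A7 and SLC7A1, the latter at 49.2 FPKM in LY19WT and 51.1 FPKM in LY19Y646F in that table. Levels differed more than directions. SLC43A1 stood at 1.12 and 0.893 FPKM in the authors' deposited table, where the library tables average 18.5 and 20.0 times as much. SLC38A2 and SLC7A6 stood 2.34 and 2.04 times higher there than the LY19WT library mean. SLC1A1 is at 0.0638 and 1.30 FPKM in the authors' deposited table, and no library table has it above 0.0314 FPKM.

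**Figure D4:**
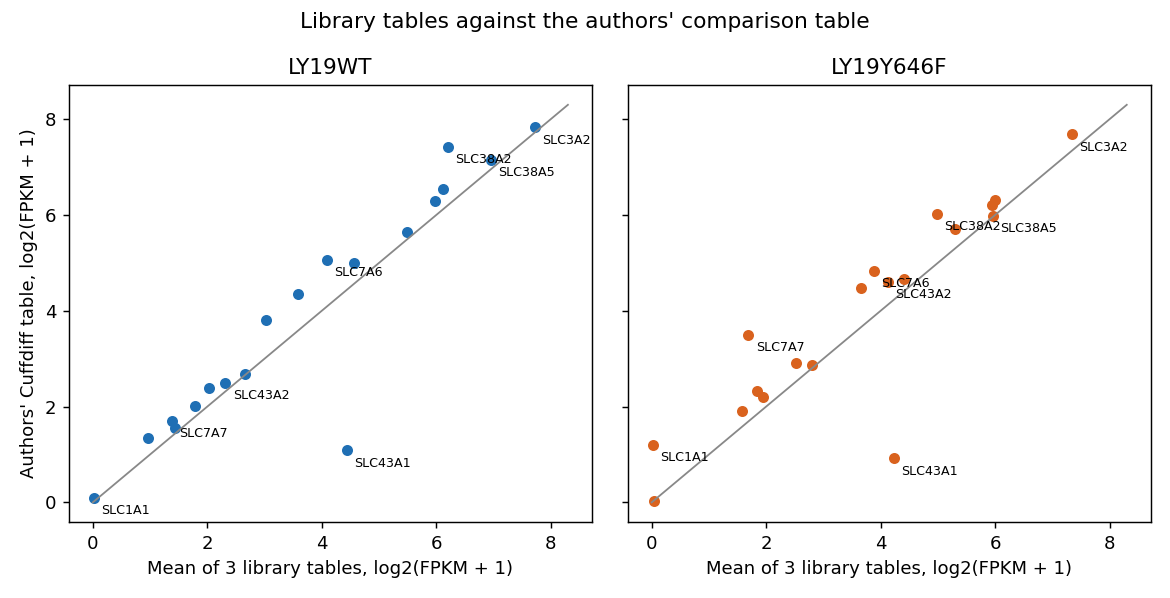
Level of the 19 members held in the authors' Cuffdiff table (vertical axis) against the mean of the 3 library tables (horizontal axis), both as log2(FPKM + 1), for LY19WT left and LY19Y646F right; the grey line marks equal values. Most points lie on or somewhat above the line, SLC43A1 lies far below it in both lines, and SLC7A7 lies above it in LY19Y646F.

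Genes that sense or use amino acids were read from 6 lists beside the transporters. Together 30 of 95 tested list genes were called (31.6%), close to the 33.3% of all tested genes. In the list of mTORC1 amino acid sensing 3 of 26 tested genes were higher and 4 lower, with 26.9% called. RRAGD, a GTPase that helps place mTORC1 on lysosomes, averaged 15.8 ± 2.29 FPKM in LY19WT (SD, n = 3 each line) and fell to 1.35 ± 0.181 FPKM, while its relative RRAGA fell from 27.2 ± 0.489 to 13.7 ± 0.702 FPKM. SESN1, of the sestrin family that restrains mTORC1, fell from 37.2 ± 2.99 to 8.15 ± 2.87 FPKM. RRAGC, partner of RRAGA in the same GTPase pair, gave 8.17, 9.47 and 10.7 FPKM in LY19WT against 14.9, 18.0 and 17.6 FPKM in LY19Y646F and rose (limma adjusted p = 0.011). Without LY19Y646F replicate 2, 1 gene of the list was higher.

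In the ATF4 amino acid response list 5 of 18 tested genes were higher and 1 (PHGDH, of serine synthesis) lower, and the share called was 33.3%, as among all tested genes. The list medians were 0.32 for mTORC1 sensing, 0.39 for the ATF4 response, -0.10 for cystine and glutathione use, 0.42 for glutamine, glutamate and branched-chain use, 0.28 for other carriers and -0.02 for tRNA synthetases, against -0.03 for all tested genes. ATF4, the transcription factor of that response, gave 289, 288 and 285 FPKM in LY19WT against 432, 458 and 441 FPKM in LY19Y646F, a difference of 0.63 (limma adjusted p = 0.0013). TRIB3, a pseudokinase among its targets, rose from 7.06 ± 0.408 FPKM in LY19WT to 19.6 ± 4.41 FPKM (SD, n = 3 each), and the lipoprotein receptor VLDLR rose from 0.286 ± 0.195 to 5.13 ± 0.895 FPKM. SLC38A2, SLC3A2, SLC7A5, SLC7A11 and SLC7A1 are also known as genes that this response can induce. SLC38A2 was called lower and the other 4 were not called, with differences of -0.47, -0.23, 0.11 and -0.19 in that order. PHGDH lost its call without LY19WT replicate 1, 2 or 3 or without LY19Y646F replicate 3, where 0 genes of the list were lower.

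Enzymes of glutamine, glutamate and branched-chain use were called for 9 of 19 tested genes (47.4%, against 33.3% of all tested genes). Of these, 7 were higher and 2 lower. Without LY19Y646F replicate 2, 4 were higher. OAT, ornithine aminotransferase, rose from 9.77 ± 0.831 FPKM in LY19WT to 133 ± 12.4 FPKM (SD, n = 3 each), and PPAT, which uses glutamine to start purine synthesis, from 33.1 ± 2.14 to 54.2 ± 0.668 FPKM. GLUL, the enzyme that makes glutamine, fell from 12.3 ± 2.18 FPKM in LY19WT to 0, 0.0338 and 0 FPKM in the LY19Y646F libraries. Of 15 tested genes of cystine and glutathione use only CBS, cystathionine beta-synthase, was called (6.67%, against 33.3% of all tested genes). It was at or under 0.0487 FPKM in LY19WT and at 44.7, 9.16 and 9.03 FPKM in LY19Y646F, with replicate 1 far above the others. Without LY19Y646F replicate 1, 3 genes of this list were lower.

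Other carriers of amino acids and peptides were higher for 2 and lower for 2 of 12 tested genes. The share called was 33.3%, as among all tested genes. SLC25A12, the mitochondrial aspartate and glutamate carrier, rose from 24.3 ± 3.23 FPKM in LY19WT to 40.5 ± 3.80 FPKM (SD, n = 3 each), and the lysosomal peptide carrier SLC15A4 from 10.4 ± 4.22 to 28.6 ± 6.10 FPKM. SLC16A10, a carrier of aromatic amino acids, fell from 1.91 ± 0.234 to 0.636 ± 0.0904 FPKM. Cytosolic aminoacyl-tRNA synthetases, which load amino acids onto tRNA, were higher for 2 and lower for 2 of 10 tested genes (40% called). FARSB stood at 66.1 ± 9.13 FPKM in LY19WT and 128 ± 15.7 FPKM in LY19Y646F. EPRS stood at 115 ± 10.2 and 68.8 ± 6.96 FPKM and TARS at 126 ± 12.4 and 76.9 ± 8.33 FPKM in the same order, and all were called. In place of 2, 1 other carrier was higher without LY19WT replicate 2 or LY19Y646F replicate 2, and 1 was lower in each fit that left out a library other than LY19Y646F replicate 1. In place of 2, 1 synthetase was higher without replicate 2 or 3 of either line.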

How the data were processed

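Polyadenylated RNA was prepared with a stranded kit and sequenced from a single end with reads of 85 bases, per the labels' protocols. The authors' tools were STAR 2.5.3a, Cufflinks 2.2.1 and Cuffdiff 2.2.1 on hg19, per the submitters' processing notes. The deposited values are FPKM per gene with a 95% interval, per the file headers, 1 table per library with loci assembled in that library. The authors' deposited Cuffdiff table holds a mean FPKM for each line with its log2 fold change.

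Rows were joined by symbol. A row counted for a gene of any type that was its only name, or for a gene that was its only protein-coding name (types from GENCODE 29). Rows of a symbol were summed. Symbols that shared a row with another coding gene, or whose row had failed, in 1 library or more did not enter, leaving 47625. Genes averaging 0.5 FPKM or more were tested with limma 3.58.1 in R 4.3.3 on log2(FPKM + 1), with a trend, two-sided, at an adjusted p of 0.05. This scale understates changes of low genes. Depth in reads is unknown, and precision rests on 3 libraries per line. On simulated data the fit recovered 34 of 100 changes of 1 log2 and 68 of 100 of 2 log2 among 10710 genes, with 12 false calls among 114. Only these genes were changed in the simulation, while 33.3% of all tested genes were called in the data. The adjusted p depends on that share, so these rates do not give the power of the test here.

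Members and lists were chosen with earlier results of these data known. Named are all members, with values per library for called ones and a set of main carriers, and up to 3 genes per list by smallest adjusted p. Outside that rule, RRAGC was named after its values were seen, and PHGDH as the 1 gene of its list called lower. Promoter windows came from RefSeq (GRCh38.p14), and coordinates of genes are those of the files, counted from 1.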

Additional observations from a re-analysis of the deposited data

How the results depend on the processing

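SLC43A2 was called higher under each of the 10 other settings and with each library left out, with differences of 1.71 to 2.29. SLC38A2 and SLC38A5 were called lower under the 10 other settings, and each lost its call in 4 of 6 fits without a library. Over all 6 such fits the differences were -1.63 to -1.06 for SLC38A2 and -1.18 to -0.83 for SLC38A5. The number of members called lower was 0 to 3 without a library, 3 without a filter (with SLC1A3) and 3 with merged rows counted for every gene (with the row of SLC38A6). It was 0 without LY19WT replicate 1 or replicate 3 and 1 without LY19WT replicate 2. Without LY19Y646F replicate 3 the 2 members called lower were SLC1A3 and SLC7A7 (limma adjusted p = 0.013 and 0.0047). Without LY19Y646F replicate 2 they were SLC1A3 (limma adjusted p = 0.016) and SLC38A2. Without LY19Y646F replicate 1 they were SLC1A3, SLC38A2 and SLC38A5. SLC1A3 reached the level for testing in each of these fits. Library weights called 5778 of all genes in place of 3563, and 53 list genes in place of 30. With a library left out these counts were 2701 to 4024 and 23 to 39.

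Members that were not called changed sign in some fits. SLC38A7 was at 0.17 with quantile scaling in place of -0.09, and -0.16 to 0.033 without a library. Without a library the differences ran from -0.45 to 0.11 for SLC1A5, -0.87 to 0.21 for SLC7A5, -0.39 to 0.044 for SLC7A6, -1.38 to 0.087 for SLC7A7, -0.045 to 0.32 for SLC7A11, -0.0061 to 0.16 for SLC36A1, -0.025 to 0.21 for SLC38A9 and -0.44 to 0.041 for SLC43A1. SLC7A7 was at 0.12 without replicate 1 of both lines. The cause of these changes was not tested.

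Deviations of same-numbered libraries correlated at 0.264, 0.0993 and 0.133 over 10710 genes. The main fit did not treat the numbers as pairs, and pairing was not tested. With the replicate block 3880 of all genes and 40 list genes were called, and the same 3 members. Each library correlated best with its own number, a hint from the data and not from the design. Depth in reads is unknown, so a member listed at 0 has no upper limit here.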
